A study of Homo sapiens with 20 samples.

Results

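The Toll-like receptors TLR1 to TLR9 and their transport partner UNC93B1 were followed in human myeloid cells in which the transcription factor EVI1 can be switched on by removing tetracycline (tet). Toll-like receptors recognise microbial molecules. TLR1, TLR2, TLR4, TLR5 and TLR6 act mainly at the cell surface on lipoproteins, lipopolysaccharide and flagellin. TLR3, TLR7, TLR8 and TLR9 act in endosomes on nucleic acids, and UNC93B1 carries these receptors there from the endoplasmic reticulum. Binding of a ligand recruits the adaptors MYD88 or TICAM1, and signalling through IRAK and TRAF proteins activates NF-kB, AP-1 and interferon regulatory factors. Monocytic cells use these receptors to release cytokines.

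The members are all probe sets of the Affymetrix HG-U133 Plus 2.0 array whose only annotated gene symbol is TLR1 to TLR9 or UNC93B1. The rule used no measured value. It gave 20 probe sets out of 54675 on the array, for 10 of the 19775 genes with such a probe set: 4 probe sets for TLR4, 3 each for TLR3 and UNC93B1, 2 each for TLR6, TLR7 and TLR8, and 1 each for TLR1, TLR2, TLR5 and TLR9. Values are log2 intensities, so that a difference of 1 is a 2-fold change, and levels of different probe sets cannot be set against each other.

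The study asked which genes respond to EVI1, an oncoprotein of myeloid leukemia. U937T_EVI1-HA clones E10 and E14 carry a human EVI1 cDNA with an HA tag that tet represses, and derive from U937, a human cell line of the monocytic lineage. The control lines are U937T_vec, as its clone P2, and parental U937T, and in neither does tet withdrawal induce an EVI1 transgene. All 4 lines were grown in 0.5 μg/ml puromycin, and E10, E14 and P2 also in 500 μg/ml hygromycin. All cultures were held in 1 μg/ml tet, washed, and put into medium without or with tet. E10 and E14 were harvested without tet and with tet at 6, 12, 24 and 48 h (16 arrays), and P2 and U937T without tet and with tet at 48 h (4 arrays). Each line, time and culture gave 1 array, so E10 and E14 served as replicates (n = 2), and likewise P2 and U937T (n = 2). The model fitted below removes the stable difference between E10 and E14 and between P2 and U937T. The p-values therefore measure how unevenly these clones or lines differed from culture to culture, pooled over all cultures, with 1 array behind each value.

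The EVI1 gene, MECOM, checked the labels. Its brightest probe set, 221884_at, read 10.5 and 9.98 in E10 and E14 without tet at 48 h, against 7.13 and 7.15 with tet. It was higher without tet at every time in both clones. In U937T it changed by 0.05, and in P2 it was lower without tet (5.91) than with tet (6.90). The other MECOM probe sets were dim, with means of 2.59 to 3.38, and none was higher without tet in both clones at 48 h. The 20 arrays had medians between 5.25 and 5.35. The difference between the 3′ and 5′ control probe sets of ACTB and GAPDH, a sign of RNA integrity, lay between 0.187 and 1.52 and was highest in the 2 E14 arrays at 24 h (1.40 without tet and 1.52 with tet). Of the myeloid markers, SPI1, CEBPA and LYZ had medians of 9.54, 11.5 and 12.0 over the arrays, while MPO (4.97), CD14 (4.11) and FCGR1A (3.52) were dim.

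Removing tet from the EVI1 clones was followed by more TLR9, TLR1 and TLR3 and by less TLR4 at 24 and 48 h. Tet withdrawal alone, in the control lines at 48 h, went with more TLR1, TLR9 and TLR6. TLR6 was higher in the clones at 48 h as well. For TLR1 and TLR6 the difference between the clones and the control lines did not pass the test. TLR9 was where the clones and the control lines differed most: its fold change at 48 h was 5.11 times that of the control lines. TLR2, TLR5, TLR7 and TLR8 passed the test in no comparison.

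Of the 20 probe sets, 18 passed a filter on intensity and were tested. The other 2, 206271_at and 242667_at of TLR3, did not reach a mean of 3 in every line. A model across all 35610 probe sets with 1 symbol that passed the filter (limma) gave p-values with Benjamini-Hochberg adjustment, and a probe set was called at an adjusted p under 0.05. None of the 18 was called at 6 h, where 0.0% of all probe sets were, nor at 12 h, where 0.0225% were. At an unadjusted p under 0.05, 5 of the 18 passed at 6 h, against 4.26% of all probe sets, and 3 at 12 h, against 4.90%. Those at 6 h were 1552798_a_at, 224341_x_at and 232068_s_at of TLR4, TLR1 and TLR3, all lower without tet. At 12 h TLR1 was higher, and TLR4 224341_x_at and TLR3 were lower. At 24 h, 8 were called against a background of 11.7%: 3 were higher without tet (TLR1, TLR9 and TLR3, background 5.39%) and 5 lower (4 of TLR4 and 1 of UNC93B1, background 6.34%). At 48 h, 8 were called against a background of 24.6%: 4 were higher (TLR1, TLR9, TLR3 and 1 of TLR6, background 13.0%) and 4 lower (all of TLR4, background 11.5%). Over the 18 probe sets the median change at 48 h was -0.07, against -0.03 over all probe sets tested.

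The control lines at 48 h had 3 members called higher without tet, TLR1, TLR9 and 1 of TLR6 (background 3.31%), and 0 lower (background 2.61%), together 3 of 18 against 5.92%. Of the 18, 5 had an unadjusted p under 0.05, against 19.0% of all probe sets. The EVI1-specific response, the response of the clones minus that of the control lines at 48 h, was called for 3 members against a background of 2.95%: TLR9 and TLR3 were higher (background 1.38%) and 1 probe set of TLR4 was lower (background 1.57%). The median over the 18 was -0.15, against -0.01 over all. The response at 48 h exceeded that at 24 h for 1 member, TLR9 (1.63% of all probe sets called, 1.01% in that direction). The EVI1-specific comparison uses the same 48 h arrays of the clones as the comparison before it, so that they are not separate evidence.

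**Figure D1:**
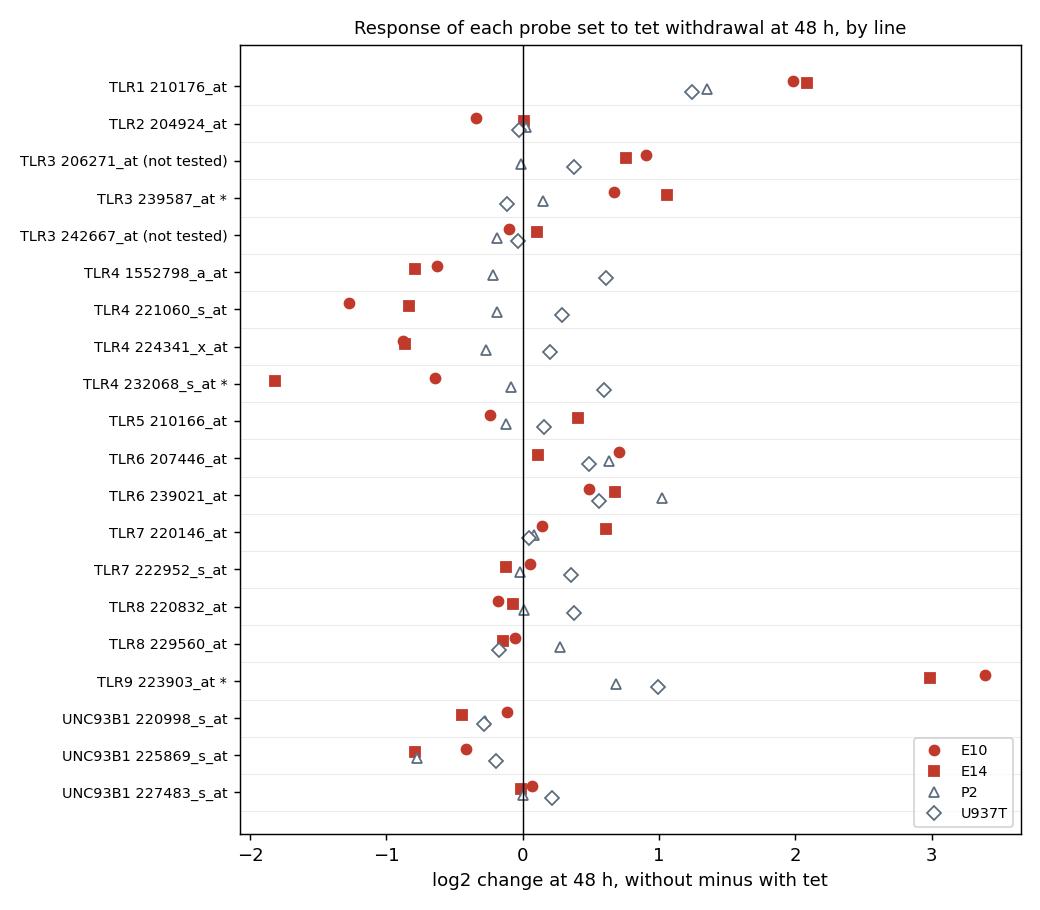
Change of each of the 20 probe sets at 48 h, without minus with tet (horizontal axis, log2), with 1 point for each line: filled red for the EVI1 clones E10 and E14, open grey for the control lines P2 and U937T. An asterisk marks the 3 probe sets called in the EVI1-specific comparison; TLR9 lies at 3.39 and 2.99 in the clones and at 0.68 and 0.99 in the control lines, and the 4 TLR4 probe sets lie below 0 in both clones and in P2 and above 0 in U937T.

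TLR9, the endosomal receptor for DNA with unmethylated CpG, was the member with the largest response. In E10 without tet, probe set 223903_at read 5.65, 5.76, 7.58 and 9.19 at 6, 12, 24 and 48 h, against 5.90, 6.05, 5.54 and 5.80 with tet. In E14 without tet it read 5.94, 5.64, 7.78 and 8.74, against 5.83, 5.54, 5.81 and 5.75 with tet. The cultures differed by at most 0.29 at 6 and 12 h, and both clones were far above their cultures with tet at 24 and 48 h. In the control lines at 48 h TLR9 was 6.73 in P2 and 6.82 in U937T without tet, against 6.05 and 5.83 with tet. All 10 arrays with tet lay between 5.54 and 6.05. The control lines without tet stood above that range and below both clones at 24 h, and the clones at 48 h stood highest. Neither clone was the higher throughout: without tet E14 exceeded E10 at 24 h, and E10 exceeded E14 at 48 h.

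The rise of TLR9 in the clones was 2.00 at 24 h (SE 0.19, adjusted p = 2.52e-05, limma) and 3.19 at 48 h, a 9.13-fold change (SE 0.19, adjusted p = 1.28e-07). In the control lines it was 0.84, a 1.79-fold change (SE 0.19, adjusted p = 0.0195). The difference between these responses was 2.35 (SE 0.26, 95% interval 1.78 to 2.92, adjusted p = 0.000516), and it was called under all 14 alternatives, at values between 2.15 and 2.55. The further rise between 24 and 48 h was 1.19 (SE 0.26, adjusted p = 0.0434). That last call was lost without E10 (1.02, adjusted p = 0.819), without E14 (1.35, adjusted p = 0.305), and without P2 or U937T (1.19, adjusted p = 0.0523 in either fit). The call in the control lines was lost without P2 (0.99, adjusted p = 0.111) and without U937T (0.68, adjusted p = 0.222). The study had picked TLR9 on these same arrays, so its direction is not independent evidence.

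**Figure D2:**
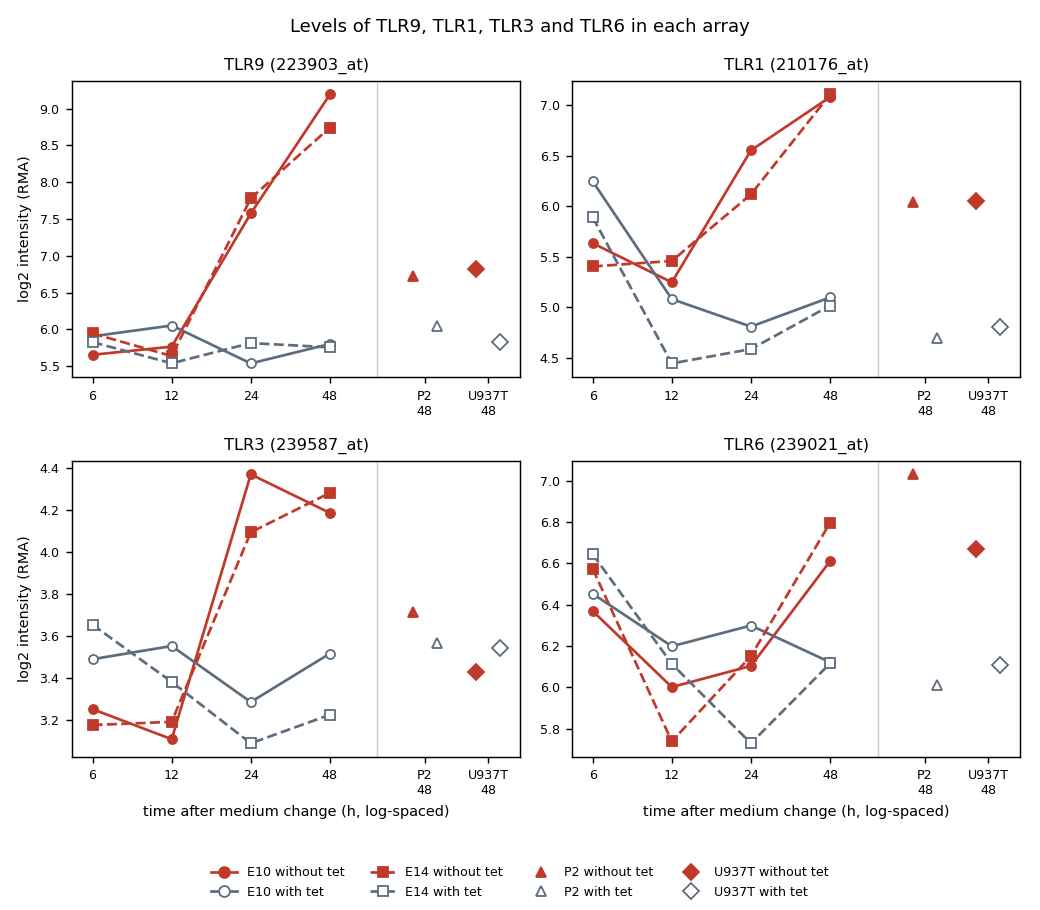
Level (log2 intensity) of TLR9, TLR1, TLR3 and TLR6 in each of the 20 arrays, by hours after the medium change for E10 and E14 and at 48 h for P2 and U937T, filled red without tet and open grey with tet. TLR9 without tet reaches 9.19 and 8.74 in the clones at 48 h while all arrays with tet stay at 6.05 or below; TLR6 without tet at 48 h is higher in P2 (7.03) than in E10 (6.61) and E14 (6.80).

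The promoter of TLR9 is shown because TLR9 carried the largest EVI1-specific response, that of TLR3 because it was the other member called higher, and that of TLR4 because it was the member called lower. The sequences are from RefSeq (GRCh38.p14) and run from 250 bases before the start of the gene to 30 after it, on the strand of the gene, which is chr3:52225616-52225895 on the minus strand for TLR9, chr4:186068906-186069185 on the plus strand for TLR3 and chr9:117704153-117704432 on the plus strand for TLR4. Capitals mark matches, on either strand, to the motifs named after them.
TLR9: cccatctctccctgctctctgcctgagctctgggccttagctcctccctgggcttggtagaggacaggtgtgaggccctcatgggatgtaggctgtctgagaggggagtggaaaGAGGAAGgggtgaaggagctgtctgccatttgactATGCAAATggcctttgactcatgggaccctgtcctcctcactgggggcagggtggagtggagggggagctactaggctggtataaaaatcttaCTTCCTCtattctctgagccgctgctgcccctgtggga
TLR3: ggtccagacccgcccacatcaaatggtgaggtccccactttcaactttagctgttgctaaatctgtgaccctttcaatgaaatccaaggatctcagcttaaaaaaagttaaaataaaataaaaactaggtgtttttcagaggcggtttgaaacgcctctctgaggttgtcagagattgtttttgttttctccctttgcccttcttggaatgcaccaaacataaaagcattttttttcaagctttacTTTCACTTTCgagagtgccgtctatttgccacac
TLR4: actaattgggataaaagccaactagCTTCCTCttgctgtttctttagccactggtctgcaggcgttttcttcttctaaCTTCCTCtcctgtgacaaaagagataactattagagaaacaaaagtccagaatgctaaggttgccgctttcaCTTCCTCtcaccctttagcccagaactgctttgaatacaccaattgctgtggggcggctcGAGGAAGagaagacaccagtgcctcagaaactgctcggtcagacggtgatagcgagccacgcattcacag

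Of the 10 genes, 7 had a promoter in the RefSeq table used (TLR2, TLR3, TLR4, TLR5, TLR6, TLR8 and TLR9). GATAAG, a core bound by the first zinc finger domain of EVI1 that also holds the GATA core of GATA factors, matched 0 of the 7, against 6.12% of 35116 promoters in windows of the same length. GAAGATGAG, bound by the second zinc finger domain of EVI1, matched 0 of the 7, against 0.313%. The TLR3 window holds a match to the core of the interferon-stimulated response element across the start site on the minus strand, and 3.39% of promoters hold it. GAGGAAG, a core of the myeloid factor PU.1 encoded by SPI1, has 4 matches in TLR4 and 2 in TLR9 and also occurs in TLR6, against 12.7% of promoters with at least 1. TLR9 further holds the octamer ATGCAAAT, found in 1.74% of promoters, starting 101 bases before the start site. A match describes the letters in this window only.

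TLR3, the endosomal receptor for double-stranded RNA that signals through TICAM1, was dim in all arrays. In E10 without tet, 239587_at read 3.25, 3.11, 4.37 and 4.18 at 6, 12, 24 and 48 h, against 3.49, 3.55, 3.28 and 3.52 with tet. In E14 without tet it read 3.17, 3.19, 4.09 and 4.28, against 3.65, 3.38, 3.09 and 3.22 with tet. Both clones were slightly below their cultures with tet at 6 and 12 h and above them at 24 and 48 h. TLR3 read 3.72 in P2 and 3.43 in U937T without tet, against 3.56 and 3.54 with tet, so that the cultures overlapped.

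In the clones TLR3 rose by 1.04 at 24 h (SE 0.13, adjusted p = 0.000185, limma) and by 0.86 at 48 h, a 1.82-fold change (SE 0.13, adjusted p = 0.000251). In the control lines it differed by 0.02 (adjusted p = 0.964). The EVI1-specific response was 0.85 (SE 0.18, 95% interval 0.45 to 1.24, adjusted p = 0.0257). It did not pass the test without E10 (1.04, adjusted p = 0.234), without E14 (0.65, adjusted p = 0.686), without P2 (0.98, adjusted p = 0.0544), without U937T (0.71, adjusted p = 0.199), without the E14 arrays at 12 and 24 h (adjusted p = 0.0796) or in a fit of the 48 h arrays alone (adjusted p = 0.118). Without E14, the response of E10 at 48 h was 0.67 (adjusted p = 0.108), and without E10 that of E14 at 24 h was 1.00 (adjusted p = 0.0552). The untested probe set 206271_at had differences of 1.37 and 0.90 in E10 at 24 and 48 h, 1.41 and 0.76 in E14, -0.02 in P2 and 0.38 in U937T. Over the 10 differences of a line and a time the probe sets had a correlation of 0.90, as a description, since both were read from the same arrays. The other untested probe set, 242667_at, lay between 2.65 and 3.41 over the 20 arrays and differed by no more than 0.24 in either direction in any line and time.

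TLR7 and TLR8, the endosomal receptors for single-stranded RNA, were not called at any time. TLR7 220146_at came nearest, at 24 h: it read 3.91 and 4.11 in E10 and E14 without tet, against 3.05 and 3.21 with tet, a difference of 0.88 (SE 0.27, adjusted p = 0.0563). At 48 h its difference was 0.38 in the clones and 0.06 in the control lines, and the interval of the EVI1-specific response ran over -0.52 to 1.15. TLR7 222952_s_at differed by 0.35 at 24 h (adjusted p = 0.163) and had an EVI1-specific difference of -0.20, with an interval of -0.65 to 0.24. Over 20 arrays TLR8 lay between 3.70 and 4.30 by 220832_at and between 2.91 and 3.47 by 229560_at. Its EVI1-specific intervals were -0.70 to 0.07 and -0.54 to 0.24.

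UNC93B1, which all of these endosomal receptors need to leave the endoplasmic reticulum, was bright by 2 of its 3 probe sets. The probe set 220998_s_at in E10 without tet read 8.54, 8.70, 8.47 and 8.63 at 6, 12, 24 and 48 h, against 8.61, 8.71, 9.07 and 8.75 with tet. E14 without tet gave 8.46, 8.63, 8.32 and 8.46, against 8.47, 8.80, 9.14 and 8.90 with tet. The cultures with tet at 24 h were the highest of all arrays, and E14 without tet at 24 h was the lowest. In P2 and U937T it read 8.44 and 8.40 without tet, against 8.71 and 8.69 with tet, which do not overlap. At 24 h UNC93B1 was 0.71 lower without tet than with tet (SE 0.10, adjusted p = 0.000668, limma), at the time when the cultures with tet were highest. The difference was -0.82 without E10, -0.60 without E14 and -0.60 without the E14 arrays at 12 and 24 h. The call was lost in each of these fits.

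At 48 h UNC93B1 220998_s_at differed by -0.28 in the clones (adjusted p = 0.0658) and by -0.28 in the control lines (adjusted p = 0.152), and the interval of the difference between them was -0.32 to 0.31. The change in the clones passed the test when fewer probe sets were tested, those with a mean of at least 5 (adjusted p = 0.0369) or 1 for each gene (adjusted p = 0.0451). The probe set 225869_s_at was lower without tet in 9 of the 10 pairs of cultures, by 0.19 to 0.79 at 48 h, and was not called (clones -0.60, adjusted p = 0.18). The dim probe set 227483_s_at lay between 4.22 and 4.88 and was not called. The 3 probe sets did not follow each other: over the 10 differences their correlations were 0.40, -0.53 and -0.32. The genome holds copies closely related to UNC93B1, and probe sets with the suffix _s_at can read more than 1 transcript, so that the level of UNC93B1 itself is uncertain here.

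TLR1, which pairs with TLR2 to bind triacylated lipoproteins, rose in the control lines as well as in the clones. In E10 without tet, 210176_at read 5.63, 5.25, 6.55 and 7.08 at 6, 12, 24 and 48 h, against 6.25, 5.08, 4.81 and 5.10 with tet. In E14 without tet it read 5.40, 5.46, 6.12 and 7.11, against 5.89, 4.45, 4.59 and 5.02 with tet. TLR1 was below the culture with tet at 6 h and above it from 12 h on in both clones. In P2 and U937T it read 6.05 and 6.05 without tet, against 4.70 and 4.81 with tet, so the cultures were far apart in each control line and the clones without tet stood about 1 unit higher again.

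In the clones TLR1 rose by 1.64 at 24 h (SE 0.16, adjusted p = 4.15e-05, limma) and by 2.03 at 48 h, a 4.10-fold change (SE 0.16, adjusted p = 1.45e-06). In the control lines it rose by 1.30, a 2.46-fold change (SE 0.16, adjusted p = 0.000673), and this call held without P2 (adjusted p = 0.0361) and without U937T (adjusted p = 0.0192). The EVI1-specific difference was 0.74 (SE 0.23, 95% interval 0.24 to 1.24) and was not called (adjusted p = 0.128). It passed in 1 of the 14 alternatives, the fit that takes the 3′ to 5′ difference of each array into account (0.80, adjusted p = 0.0442).

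TLR6, which pairs with TLR2 to bind diacylated lipoproteins, also rose in both kinds of line, and in the clones it was called at 48 h only. In E10 and E14 at 48 h, 239021_at read 6.61 and 6.80 without tet, against 6.12 and 6.12 with tet. In P2 and U937T it read 7.03 and 6.67 without tet, against 6.01 and 6.11 with tet. At 48 h all 4 lines were higher without tet, and the clones and the control lines overlapped. At 6, 12 and 24 h it read 6.37, 6.00 and 6.10 in E10 without tet, against 6.45, 6.20 and 6.30 with tet, and 6.57, 5.74 and 6.15 in E14 without tet, against 6.64, 6.11 and 5.73 with tet. Of these 6 pairs, E14 at 24 h alone was higher without tet.

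The rise of TLR6 at 48 h was 0.58 in the clones (SE 0.17, adjusted p = 0.026, limma) and 0.79 in the control lines (SE 0.17, adjusted p = 0.019), and the interval of their difference was -0.74 to 0.33 (adjusted p = 0.792). The call in the clones was lost without E10 (0.68, adjusted p = 0.117) and without E14 (0.49, adjusted p = 0.292), and that in the control lines without P2 (0.56, adjusted p = 0.301) and without U937T (1.02, adjusted p = 0.0546). The TLR6 probe set 207446_at was not called (0.41 in the clones, adjusted p = 0.159, and 0.56 in the control lines, adjusted p = 0.124). TLR1 and TLR6 lie side by side on chromosome 4 with TLR10, a further member of the family that was not called in any comparison (0.34 in the clones and 0.19 in the control lines at 48 h). The paired receptor of TLR1 and TLR6, TLR2, lay between 4.48 and 4.98 over all 20 arrays, and its EVI1-specific interval was -0.54 to 0.21.

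TLR4, the receptor for lipopolysaccharide, moved the other way. The probe set 221060_s_at in E10 without tet read 7.50, 5.75, 5.71 and 5.58 at 6, 12, 24 and 48 h, against 7.87, 6.35, 6.81 and 6.85 with tet. E14 without tet gave 6.85, 6.20, 4.72 and 5.74, against 7.57, 5.75, 6.05 and 6.58 with tet. Both clones were lower without tet at 6, 24 and 48 h, and at 12 h E14 was higher. In P2 and U937T it read 6.51 and 6.90 without tet, against 6.70 and 6.60 with tet, within the range of the clones with tet.

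The TLR4 probe set with the largest change was 232068_s_at. In E10 without tet it read 5.85, 4.17, 3.94 and 4.26 at 6, 12, 24 and 48 h, against 6.07, 4.66, 5.43 and 4.90 with tet. In E14 without tet it read 5.26, 4.27, 3.52 and 3.78, against 6.22, 4.53, 5.09 and 5.59 with tet. Every difference in the clones was negative, and the gap at 48 h was wider in E14 (-1.81) than in E10 (-0.64). In P2 and U937T it read 5.26 and 5.94 without tet, against 5.35 and 5.34 with tet. The control lines went opposite ways, P2 by -0.09 and U937T by 0.60.

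The probe set 1552798_a_at was, in E10 without tet, 6.96, 6.07, 5.69 and 5.86 at 6, 12, 24 and 48 h, against 7.40, 6.45, 6.43 and 6.49 with tet. E14 without tet had 6.60, 6.18, 5.60 and 5.79, against 6.99, 6.11, 6.21 and 6.58 with tet, and in P2 and U937T 6.50 and 6.82 without tet, against 6.72 and 6.21 with tet. Without tet, both clones at 24 and 48 h lay below all arrays of the control lines. The probe set 224341_x_at was, in E10 without tet, 7.44, 5.94, 5.80 and 5.99, against 7.81, 6.83, 7.06 and 6.87 with tet. E14 without tet had 7.22, 6.16, 5.27 and 6.18, against 7.87, 6.62, 6.68 and 7.05 with tet, and in P2 and U937T 6.71 and 7.14 without tet, against 6.98 and 6.94 with tet. By this probe set both clones were lower without tet at every time.

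The 4 probe sets of TLR4 fell by 0.68 to 1.53 in the clones at 24 h, the largest fall being that of 232068_s_at (-1.53, SE 0.26, adjusted p = 0.00166, limma). At 48 h the changes were -0.71 for 1552798_a_at (adjusted p = 0.00995), -1.06 for 221060_s_at (adjusted p = 0.0123), -0.87 for 224341_x_at (adjusted p = 0.0033) and -1.23 for 232068_s_at, a fold of 0.427 (adjusted p = 0.0031). None was called in the control lines, at 0.20, 0.05, -0.03 and 0.25 in the same order. Their differences had correlations of 0.77 to 0.87 with each other over the 10 lines and times. They read the same RNA, so that 4 calls stand for 1 gene, and a probe set with the suffix _x_at may also bind other transcripts.

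The EVI1-specific change of TLR4 was called for 232068_s_at only (-1.48, SE 0.36, 95% interval -2.26 to -0.70, adjusted p = 0.0471). For 1552798_a_at it was -0.91 (adjusted p = 0.0819), for 221060_s_at -1.11 (adjusted p = 0.185) and for 224341_x_at -0.84 (adjusted p = 0.125). The call of 232068_s_at was lost without E14 (-0.89, adjusted p = 0.521), without P2 (-1.82, adjusted p = 0.0637), without U937T (-1.14, adjusted p = 0.315) and in 5 other alternatives (adjusted p = 0.0507 to 0.144). Without P2, 1552798_a_at was called (-1.32, adjusted p = 0.0236). Once the 3′ to 5′ difference of each array was taken into account, 221060_s_at (adjusted p = 0.0162), 224341_x_at (adjusted p = 0.0171) and 232068_s_at (adjusted p = 0.0354) were called.

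At 48 h in the clones, calls of TLR4 were lost for 1552798_a_at without E10 (-0.79, adjusted p = 0.118) and without E14 (-0.63, adjusted p = 0.238), for 221060_s_at without E10 (-0.84, adjusted p = 0.0554) and for 232068_s_at without E14 (-0.64, adjusted p = 0.191), while 224341_x_at was called in both fits. TLR4 was also highest at 6 h in both clones and both cultures. The arrays at 6 h had 3′ to 5′ differences of 0.187 to 0.651, against 0.460 to 1.52 at the later times, and the part of RNA integrity in these levels was not tested. Without the E14 arrays at 12 and 24 h, 4 of the 8 members called at 24 h were called: TLR9 (2.04, adjusted p = 0.00609), TLR1 (1.74, adjusted p = 0.00388), TLR3 (1.08, adjusted p = 0.0258) and TLR4 224341_x_at (-1.26, adjusted p = 0.02).

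**Figure D3:**
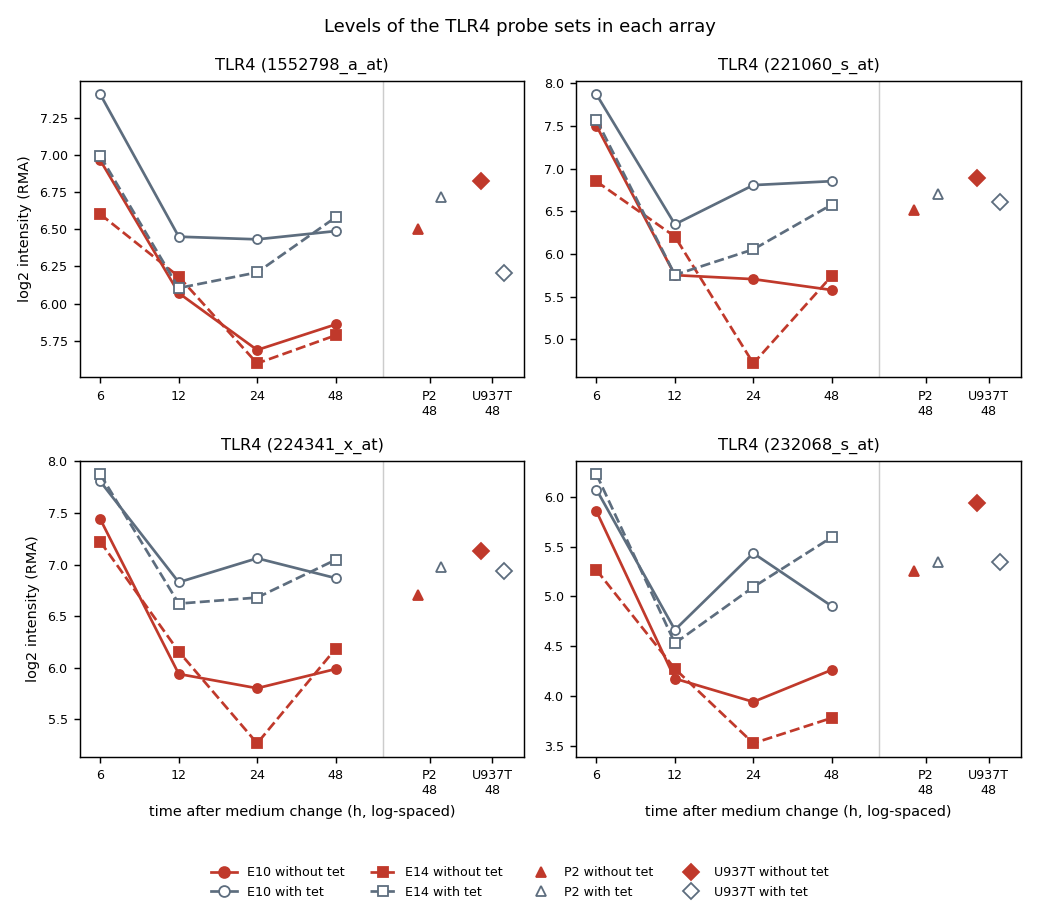
Level (log2 intensity) of the 4 TLR4 probe sets in each of the 20 arrays, by hours after the medium change for E10 and E14 and at 48 h for P2 and U937T, filled red without tet and open grey with tet. At 24 and 48 h both clones lie lower without tet than with tet in every panel, at differences of -0.61 to -1.81, while U937T lies higher without tet in every panel.

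TLR5, the receptor for flagellin, lay between 4.05 and 4.60 over all 20 arrays and was not called. Its change at 48 h was 0.08 in the clones and 0.02 in the control lines, and the EVI1-specific interval was -0.38 to 0.52.

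The pattern of TLR9 over the 10 differences of a line and a time was most like that of ITLN1 (r = 0.991), CORO1B (r = 0.987), GRAMD1C (r = 0.984), MAP7D1 (r = 0.984) and PDLIM5 (r = 0.978), taken over 17859 other genes with 1 probe set each. ITLN1, a lectin, differed by 3.69 and 3.55 in E10 and E14 at 48 h, 0.92 in P2 and 1.28 in U937T. CORO1B, an actin regulator, differed by 1.38 and 1.40 in the clones, 0.33 in P2 and 0.59 in U937T. Of the 17859 genes, 89 had a correlation above 0.95. Among the members, TLR3 had a correlation of 0.88 with TLR9 and TLR1 of 0.85. These correlations share arrays and the medium change and are descriptions.

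The other genes of the pathway, in 8 lists of 99 genes, were read by the brightest probe set of each, and 89 were measured. In the clones 15 were higher and 9 lower at 24 h (6.55% and 7.81% of all genes), and 28 were higher and 11 lower at 48 h (14.7% and 13.2%). The control lines had 11 higher and 4 lower (4.01% and 3.64%). The EVI1-specific response was called higher for 4 (1.66% of all genes) and lower for 3 (2.11%). The median EVI1-specific change was 0.06 over the 89 genes and -0.0036 over all genes. Without E10, E14, P2 or U937T, fewer of these genes had an EVI1-specific call, and fewer of all probe sets did as well. Each of these fits leaves 1 array in some groups.

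Among 8 accessory receptors and ligand carriers, 4 were higher in the clones at 48 h and 3 in the control lines (14.7% and 4.01% of all genes). An EVI1-specific call, higher, was made for 1 (1.66% of all genes). GRN, whose product helps to present CpG DNA to TLR9 in mouse macrophages, rose by 1.39 in the clones and 0.56 in the control lines (EVI1-specific 0.82, SE 0.19, adjusted p = 0.0327, limma). CD36, a scavenger receptor that works with TLR2, rose by 3.41 in the clones and by 2.69 in the control lines, and the difference was not called (0.72, adjusted p = 0.396). CAMP differed by 1.23 and 0.51 in E10 and E14 at 48 h, and by 0.60 and 1.13 in P2 and U937T. CD180, an inhibitory relative of TLR4, differed by 0.69 in the clones and -0.02 in the control lines (EVI1-specific 0.72, adjusted p = 0.0701). CD14, the co-receptor of TLR4, differed by -0.04 in the clones.

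Of 15 genes of receptor folding, trafficking and cleavage, 4 were higher and 2 lower in the clones at 48 h (14.7% and 13.2% of all genes). In the control lines 1 was higher and 1 lower (4.01% and 3.64%). The EVI1-specific comparison called 0, against 1.66% of all genes higher and 2.11% lower. CTSS, a protease that cleaves endosomal receptors, rose by 1.20 in the clones and differed by 0.81 in the control lines (adjusted p = 0.0861). CTSB, another endosomal protease, rose by 0.73 in the clones and 0.47 in the control lines. NRROS, which in mouse cells restrains receptor signalling, fell by 1.13 in the clones and by 0.57 in the control lines, and its EVI1-specific change was -0.56 (adjusted p = 0.0509). Of 4 adaptors with a TIR domain, MYD88 rose by 0.65 and SARM1 fell by 0.33 in the clones at 48 h, and neither was called in the EVI1-specific comparison (adjusted p = 0.171 for each).

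Of 17 kinases and ubiquitin ligases, 5 were higher and 3 lower in the clones at 48 h (14.7% and 13.2% of all genes). In the control lines 1 was higher and 1 lower (4.01% and 3.64%). IRAK1, the kinase recruited through MYD88, fell by 0.73 in the clones and differed by -0.17 in the control lines (EVI1-specific -0.57, SE 0.13, adjusted p = 0.0296, limma). TRAF3, an adaptor ligase of the interferon branch, fell by 0.94 in the clones and by 0.46 in the control lines. PELI1, a ubiquitin ligase acting on IRAK proteins, rose by 1.04 in the clones and differed by 0.37 in the control lines.

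Of 13 transcription factors, 6 were higher and 1 lower in the clones at 48 h (14.7% and 13.2% of all genes). In the control lines 3 were higher and 1 lower (4.01% and 3.64%). An EVI1-specific call, higher, was made for 2 (1.66% of all genes). IRF7, which drives interferon genes after signals from TLR7 and TLR9, differed by 2.19 and 2.61 in E10 and E14 at 48 h, 0.83 in P2 and 0.78 in U937T. Each clone lay above each control line, and the EVI1-specific rise was 1.59 (SE 0.21, adjusted p = 0.00174, limma). IRF7 was also picked by the study on these arrays. JUN, a subunit of AP-1, rose by 1.13 in the clones and differed by 0.24 in the control lines (EVI1-specific 0.89, SE 0.17, adjusted p = 0.0152), whereas its partner FOS rose by 2.17 and 1.59 and was not called in that comparison (adjusted p = 0.227).

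Of 14 inhibitors, 7 were higher and 0 lower in the clones at 48 h (14.7% and 13.2% of all genes). In the control lines 3 were higher and 1 lower (4.01% and 3.64%). SIGIRR, an inhibitory receptor with a TIR domain, rose by 1.12 in the clones and 0.35 in the control lines (EVI1-specific 0.77, SE 0.13, adjusted p = 0.00747, limma). CYLD and TANK, which restrain NF-kB and TRAF signalling, rose by 1.27 and 1.30 in the clones and by 0.59 and 0.72 in the control lines, with no EVI1-specific call (adjusted p = 0.0542 and 0.116). Of 17 cytokine targets, 1 was higher and 4 lower in the clones at 48 h, against the same 14.7% and 13.2%. In the control lines 0 were called in either direction. CCL20 and CCL5, chemokines induced by these receptors, had EVI1-specific differences of -1.15 (adjusted p = 0.0146) and -0.93 (adjusted p = 0.0167). CCL20 differed by -0.79 and -0.73 in E10 and E14 at 48 h, and by 0.52 and 0.26 in P2 and U937T. CCL5 differed by -1.23 in each clone, -0.35 in P2 and -0.23 in U937T. IL12A differed by -0.73 and -0.58 in E10 and E14, and by -0.74 and -0.05 in P2 and U937T. TNF rose by 0.55 in the clones and differed by 0.49 in the control lines.

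TLR9 and IRF7 are also characteristic of plasmacytoid dendritic cells and TLR9 of B cells, so markers of these and other cells were read. Over all probe sets 2.95% were called in the EVI1-specific comparison and 24.6% in the clones at 48 h. A count of 0 EVI1-specific calls among a few markers is therefore close to that share. Of 6 markers of plasmacytoid dendritic cells, 5 passed the filter, 0 of them were called in the EVI1-specific comparison, and LAMP5 fell in the clones at 48 h (-0.96, adjusted p = 0.000117, limma). CLEC4C, which defines these cells, did not pass the filter and was not tested, and it lay between 2.75 and 3.10 over all arrays. The mean of the 6 was 6.12 to 6.17 in the clones without tet at 48 h, against 6.26 to 6.31 with tet, and 6.14 to 6.22 in the control lines without tet, against 6.30 to 6.42 with tet. Without LAMP5 that mean was 5.96 to 6.05 in the clones without tet, against 5.96 to 6.01 with tet. In the control lines it was 5.92 to 5.99 without tet, against 6.01 to 6.17 with tet. Of 5 measured B cell markers, 0 were called in the EVI1-specific comparison, while CD79A (0.43, adjusted p = 0.0243) and CD79B (0.49, adjusted p = 0.0337) rose in the clones at 48 h. Their mean was 5.26 to 5.36 in the clones without tet, against 5.21 to 5.26 with tet, and 5.30 to 5.40 in the control lines without tet, against 5.27 to 5.32 with tet. Without CD79B that mean was 5.31 in each clone without tet, against 5.28 to 5.39 with tet. In the control lines it was 5.40 to 5.52 without tet, against 5.45 to 5.51 with tet.

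Of 6 T and NK cell markers, CD3E (1.17) and NKG7 (1.11) rose in the clones at 48 h, and CD3E was called in the EVI1-specific comparison (0.89, adjusted p = 0.0145), where NKG7 was at -0.03. CD3D (-0.22), CD3G (-0.31), CD2 (0.13) and GNLY (-0.04) were not called in the clones. The mean of the 6 was 5.62 to 5.70 in the clones without tet, against 5.33 to 5.38 with tet, and 5.49 to 5.62 in the control lines without tet, against 5.34 to 5.44 with tet. Of 8 measured myeloid markers, ITGAM, an integrin of mature myeloid cells, rose by 5.27 in the clones at 48 h with an EVI1-specific part of 1.35 (adjusted p = 0.00473), and CSF1R, a cytokine receptor of monocytes, rose by 0.96 (adjusted p = 0.0115). SPI1, CEBPA, LYZ, MPO, FCGR1A and CD14 were not called in the clones, at -0.24 to 0.26. The mean of the myeloid markers was 7.90 to 7.98 in the clones without tet, against 7.11 to 7.25 with tet, and 7.69 to 7.76 in the control lines without tet, against 7.12 to 7.21 with tet. Most of that shift came from ITGAM: over the other 7 markers the mean was 7.57 to 7.62 in the clones without tet, against 7.40 to 7.57 with tet, and 7.45 to 7.50 in the control lines without tet, against 7.34 to 7.45 with tet. Of 3 measured erythroid markers, KLF1 fell by 1.39 in the clones at 48 h and 0 had an EVI1-specific call. For KLF1 that comparison gave -0.80 (adjusted p = 0.0508, limma), just over the threshold. Of the 4 tested markers of epithelial cells and fibroblasts 0 were called in either comparison. The part of these markers in the changes of the receptors was not tested, and in these bulk samples more cells of a kind and more RNA per cell cannot be told apart.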

How the data were processed

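RNA was measured in 20 samples, each on 1 Affymetrix HG-U133 Plus 2.0 array. The deposited values are log2 intensities that the authors computed by Robust Multi-array Analysis (background correction, quantile normalization and summarization of probes), and they were used as deposited. Software versions and the probe set definition are not given in the sources used here. On the 54675 probe sets there were 0 missing values. Gene symbols came from the platform annotation: 41097 probe sets have 1 symbol, and 1801 with several and 11777 without a symbol were not used. As in the study, a probe set had to average at least 3 (log2) over the cultures without and with tet, in each clone at 24 h and again at 48 h and in each control line, which left 35610 probe sets.

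They were fitted with limma 3.58.1 in R 4.3.3, with 10 groups and the line as a fixed block (8 residual and 4.73 prior degrees of freedom). Responses were taken as without minus with tet in the clones at each time and in the control lines, the difference of these responses at 48 h, and 48 minus 24 h in the clones. The spread behind the control response comes mostly from the clones, which span more arrays. P-values were adjusted over the 35610 probe sets, and the fit was tested on simulated data. Intervals cover 95%. For pathway genes and likeness, each of 17860 genes was read by its probe set of highest mean. All members are named, with values in each array for those called. Up to 4 genes of each list are named, those with an EVI1-specific call first and then those called in the clones at 48 h, the largest changes first. TLR10, CD14 and the cell markers given with values fall outside this rule and were chosen after their values were seen, as were the members described though not called. The number of arrays limits the precision. Members and gene lists were chosen with earlier results of these data known.

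E10 and E14 carry the same numbers at each time, since a number stands for a clone, and the deviations of 1 clone had a median correlation of 0.11 over 28 pairs of groups (-0.22 to 0.64). P2 and U937T had a correlation of -0.24. Alternatives covered the filter, the probe sets, centring, the variance model, the block, the arrays fitted, RNA integrity and leaving out each line.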

Additional observations from a re-analysis of the deposited data

Results flagged for a closer look

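At 48 h the response to tet withdrawal differed between the EVI1 clones and the control lines for 3 of the 18 probe sets tested. The test was of the difference itself (limma, Benjamini-Hochberg adjustment over all probe sets), and it called 2.95% of all 35610 probe sets. For TLR9 223903_at the clones exceeded the control lines by 2.353 on the log2 scale (adjusted p = 0.000516), with each clone above each control line. For TLR3 239587_at, which was dim, they exceeded them by 0.8452 (adjusted p = 0.0257), and this call was lost in 6 of 13 alternatives. For TLR4 232068_s_at they lay below them by -1.4803 (adjusted p = 0.0471), with E14 farther below than E10. This call was lost in 8 of 12 alternatives, and the other TLR4 probe sets were not called (adjusted p = 0.0819 to 0.185).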

How the results depend on the processing

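The EVI1-specific call of TLR9 held under all 14 alternatives (2.15 to 2.55, adjusted p = 0.000122 to 0.0123, limma), and no member was called at 6 h under any. Once the 3′ to 5′ difference of each array was in the fit, 1 member was called at 12 h (TLR4 224341_x_at) in place of 0. In the EVI1-specific comparison 6 were called in place of 3. Over all 35610 probe sets that fit called 9 in place of 8 at 12 h, and 1377 in place of 1049 in the EVI1-specific comparison. At 24 h, 5 of 10 were called with 1 probe set a gene, in place of 8 of 18. Over all probe sets tested, 3059 of 17860 were called there, in place of 4179 of 35610. Without the E14 arrays at 12 and 24 h, E10 stands alone at those times. That fit called fewer at 24 h and for 48 minus 24 h, among the members and over all probe sets. In the EVI1-specific comparison 1 was called, in place of 3, in 3 further fits. They were those with a mean intensity of at least 5 (10 tested), with only the arrays at 48 h, and without the E14 arrays at 12 and 24 h. Over all probe sets these fits called 1239 of 23103, 330 of 35610 and 544 of 35610, in place of 1049 of 35610. For 48 minus 24 h, 0 were called in place of 1 with all annotations and with the EVI1 clones only. Over all probe sets these fits called 534 of 46203 and 538 of 35610, in place of 580 of 35610. The cause was not tested. Leaving out each line in turn gave 5 to 8 members at 24 h, 4 to 8 at 48 h, 1 to 3 in the control lines, 1 to 2 in the EVI1-specific comparison and 0 for 48 minus 24 h. In the comparisons at 24 and 48 h that use a line, leaving it out lowered the calls over all probe sets as well. Without E10 or E14 the lone clone is assumed to vary like the other lines, and 1 residual degree of freedom remains. Differences near 0 changed sign: the EVI1-specific value of TLR6 239021_at was 0.024 without P2, in place of -0.21 (-0.43 to 0.024 over the lines left out), and that of UNC93B1 220998_s_at was 0.16 without E14 and 0.0028 without P2, in place of -0.0036 (-0.17 to 0.16). Without the line as a block, TLR4 232068_s_at lost its EVI1-specific call (adjusted p = 0.0531), which left 2 members in place of 3, and no other count of members moved. Of the pathway genes, 0 to 7 were called higher and 0 to 4 lower in the EVI1-specific comparison over the alternatives. Only normalized values were used, so background correction and normalization of the scans were not varied. Signal over background was not analysed here, so its limit on dim probe sets was not measured. Control lines were read at 48 h only, so an EVI1-specific response at 24 h cannot be given.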
